A study of Mus musculus with 3 samples.

Results

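The 10 genes described here were followed through intimal cells of the mouse aortic arch: Klf2, Klf4, Sox7, Sox17, Sox18, Erg, Tek, Tie1, Kdr and Cytl1. All but Cytl1, a secreted protein gene listed with them, govern endothelial identity or answer to blood flow. The 10 genes were chosen by symbol, with earlier results of these data known, and all 10 were found among the 32285 genes of every library. The groups were 1 library of mice given 30 µg ultrapure lipopolysaccharide (LPS, a component of the outer membrane of Gram-negative bacteria) by vein, with the aorta taken 18 h later, and 2 libraries of untreated control mice. All animals were wild-type C57BL/6J mice of both sexes, 12 to 13 weeks old, pooled at 5 to 10 animals a library. Cells were collected from the lesser curvature, the inner bend of the arch, where flow is disturbed, after perfusion with actinomycin D, a blocker of transcription.

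Endothelial cells sense the drag of blood through junctional and membrane receptors, and steady laminar flow drives a MEK5, ERK5 and MEF2 kinase cascade that turns on the zinc finger factors Klf2 and Klf4. Those factors promote anticoagulant and anti-inflammatory genes. The SOXF factors Sox7, Sox17 and Sox18 and the ETS factor Erg keep the endothelial programme on, and Tek (Tie2), Tie1 and Kdr (VEGFR2) are receptors for angiopoietin signalling and vascular endothelial growth factor that carry survival and growth signals. Cytl1 encodes cytokine-like 1, a small secreted protein.

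The region before the transcription start is shown for Klf2, for its MEF2 motif, and for Cytl1 and Tek, members of different roles that fell together after LPS. Sequences are RefSeq windows on GRCm38.p6, in which 7 of the 10 members matched; Sox7, Sox17 and Sox18 were not matched. Each is written 5′ to 3′ on the plus strand and stops at the base before the annotated gene start. Capitals mark a MEF2 motif in Klf2 (chr8:72318812-72319032), the ETS core GGAA or its complement TTCC in Cytl1 (chr5:37735269-37735518), and the SOX motif ACAAT or its complement ATTGT in Tek (chr4:94739039-94739288).
Klf2: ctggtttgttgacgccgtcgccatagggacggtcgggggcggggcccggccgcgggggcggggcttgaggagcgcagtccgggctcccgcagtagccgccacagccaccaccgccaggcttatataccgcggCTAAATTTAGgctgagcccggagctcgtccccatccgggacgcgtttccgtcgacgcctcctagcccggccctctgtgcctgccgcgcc
Cytl1: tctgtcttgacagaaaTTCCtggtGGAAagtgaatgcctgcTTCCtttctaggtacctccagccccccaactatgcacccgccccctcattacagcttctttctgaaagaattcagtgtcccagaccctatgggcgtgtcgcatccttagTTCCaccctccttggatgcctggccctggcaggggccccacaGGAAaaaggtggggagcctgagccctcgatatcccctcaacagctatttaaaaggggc
Tek: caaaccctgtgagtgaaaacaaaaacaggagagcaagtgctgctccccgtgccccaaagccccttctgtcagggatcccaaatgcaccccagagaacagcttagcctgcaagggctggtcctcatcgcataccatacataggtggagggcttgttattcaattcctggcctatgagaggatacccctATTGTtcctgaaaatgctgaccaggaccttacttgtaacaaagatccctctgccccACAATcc
Searched on both strands in the 250 bases before the RefSeq start, the MEF2 motif was present once in Klf2, 118 bases before the start, and in 2.92% of 32841 windows of all genes. GGAA was present 5 times in the Cytl1 window, 7 times in Tie1 and 2 times in Tek, but 93.5% of all windows held it. ACAAT was present 2 times in Tek, 63 and 7 bases before the start, and in 27.7% of all windows. CACCC, the core of KLF sites, was present in 52.0% of all windows, 2 times each in Cytl1 and Tie1 and once each in Klf2, Tek and Kdr. The RefSeq start of Klf2 lies past the annotated gene start, so the printed Klf2 bases stop short of it. The Klf2 CACCC match, 19 bases before the RefSeq start, is not among them. The Tie1 window also reaches into the annotated gene. Of 3 windows at different starts of Erg, 2 held CACCC once and 1 held the MEF2 motif, 16 bases before its start. The capitalised matches do not overlap each other, and a match describes the letters only.

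Libraries held 21864072 UMIs (unique molecular identifiers, 1 per captured RNA molecule) over 6000 barcodes in the LPS library, against 4940996 over 1269 and 20069697 over 4813 in the controls. Filtering kept 5156 LPS and 431 and 2697 control barcodes, of which 3336 LPS and 4 and 1 control barcodes lay in near-empty clusters rich in Gm42418, a ribosomal RNA-like transcript. Cell classes were rebuilt from markers that include no member, with the members left out of the clustering, and each name carries "-like" for that reason. There were 187 endothelial-like cells in the LPS library and 41 and 139 in the controls, with 1787234 UMIs against 224778 and 676175. Different sub-clusters held them: 11.0 to 11.5 in the LPS library and 4.2, 4.5 and 17.0 to 17.2 in the controls. Pairs of libraries shared 1 to 6 barcode sequences.

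The endothelial label was given from 15 markers, so their presence in the sums follows from the naming and is no test of it. All 15 were detected in the LPS and second control sums, and Robo4 was at 0 in the first control. Their summed level was 6436 CPM (UMIs scaled to a common total per sum) in LPS cells, against 10480 and 10780 CPM in control cells. Of the 15 markers, 10 were below both controls in LPS cells, among them Pecam1 and Ptprb, 2 lay between the controls, and 3 (Cdh5, Emcn and Ecscr) were above both. Smooth muscle markers summed to 520 CPM in LPS cells, against 449 and 4974 CPM in the controls, and erythroid markers to 4770 CPM, against 445 and 4171 CPM. RNA free in the droplets was estimated at 27.1% of endothelial-like UMIs in the LPS library, against 40.1% and 45.2% in the controls. It was at most 11.7% of the UMIs of any member there. Lymphatic endothelial markers summed to 302 CPM in LPS cells, against 48.9 and 31.1 CPM in the controls, of which Lyve1 made up 261 CPM, against 13.4 and 2.96 CPM, while the defining Prox1 was at 1.68 CPM, against 4.45 and 7.40 CPM. The dendritic list summed to 377 CPM in LPS cells, against 2024 and 3123 CPM, nearly all of it Cst3, with Flt3, Clec9a and Cd209a at 0 in all libraries. The part of the other markers in the results below was not tested, and the fit with free RNA subtracted is given with the calls.

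In endothelial-like cells 4 of the 10 members fell after LPS, namely Cytl1, Tek, Sox17 and Sox7, and 0 rose. Klf2, Erg, Tie1, Sox18, Klf4 and Kdr did not pass the test. The LPS value lay below both controls for all 10, as it did for 34.6% of the 8843 genes tested. Of those genes 5.69% were called lower and 5.93% higher by edgeR's quasi-likelihood test at an adjusted p under 0.05. The median log2 fold change (LPS over control) was -1.18 over the members and -0.01 over all genes tested. Because the members were chosen with earlier results of these data known, these shares and medians are no test of the set.

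**Figure D1:**
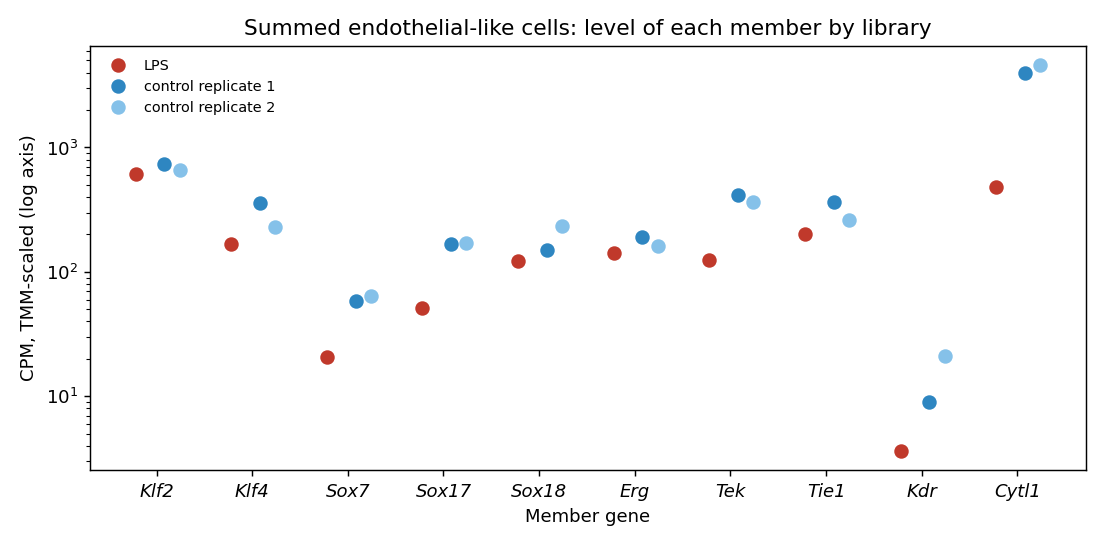
Level of each member in the summed endothelial-like cells of each library, in TMM-scaled CPM on a log axis; each point is 1 library. The LPS point lies under both control points for every gene, and the gap is widest for Cytl1.

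Cytl1 (chr5:37735519-37739820, GRCm38, plus strand), whose promoter is printed above, had 479 CPM in LPS cells, against 3933 and 4580 CPM in control cells (TMM-scaled here and for the other members of this class). That is 789 UMIs in LPS cells, against 869 and 3232 UMIs in controls. The control values lay close together and far above the LPS value. Cytl1 was 8.88-fold lower after LPS, with a log2 fold change of -3.15 ± 0.63 (SE) and an edgeR adjusted p of 2.24e-05. Detection showed the same order: at 1000 UMIs per cell, 22.5% of LPS cells had a Cytl1 UMI, against 81.3% and 89.2% of control cells.

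Among the receptors, Tek (chr4:94739289-94874976, plus strand), which binds angiopoietins, had 125 CPM in LPS cells, against 412 and 364 CPM in control cells. Both control sums lay above the LPS sum. Its log2 fold change was -1.63 ± 0.55 (SE, edgeR adjusted p 0.0295). At 1000 UMIs per cell 9.63% of LPS cells had a Tek UMI, against 31.3% and 23.0% of control cells. In control replicate 2, sub-clusters 17.0 and 17.2, with 19 and 10 cells, held 111 and 60 of the 257 Tek UMIs. A mean that gave each cell the same weight was 94.5 CPM in LPS cells, against 371 and 281 CPM in control cells.

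Tie1 (chr4:118471191-118490061, minus strand), a Tek partner long studied as an orphan receptor, had 202 CPM in LPS cells, against 367 and 264 CPM in control cells. The controls differed from each other by more than the second control differed from LPS. The log2 fold change was -0.63 ± 0.52 (SE, edgeR adjusted p 0.536), with a 95% interval of the LPS over control ratio of 0.320 to 1.31. At equal depth 15.8% of LPS cells had a Tie1 UMI, a share between the 25% and 14.7% of the controls.

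Kdr (chr5:75932827-75978458, minus strand), the main receptor for VEGF-A, was close to absent from endothelial-like cells of every library. It had 6 UMIs in 187 LPS cells, against 2 UMIs in 41 and 15 UMIs in 139 control cells, or 3.65 CPM against 9.05 and 21.3 CPM. Its log2 fold change of -2.16 ± 1.35 (SE, edgeR adjusted p 0.367) rests on these few molecules and was -1.10 without control replicate 2. With so few molecules a change of Kdr was not detectable at this depth.

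**Figure D2:**
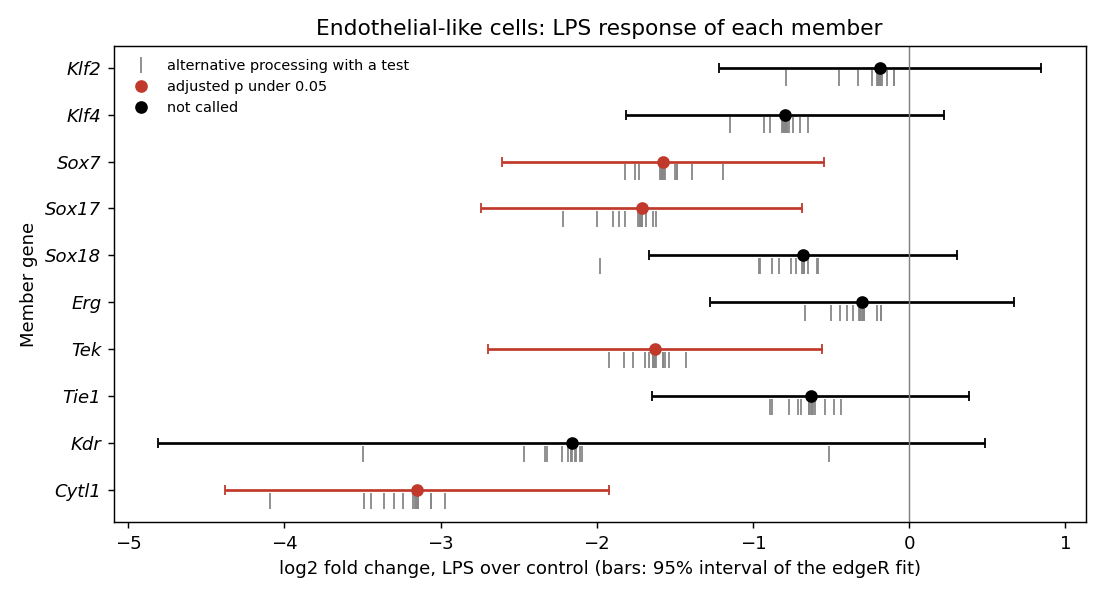
Log2 fold change of each member in endothelial-like cells, LPS over control, with the 95% interval of the edgeR fit (bars) and the value under every other processing that kept a test (grey ticks). Red points are the 4 members called lower, black points the 6 not called; every tick lies below 0.

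Of the SOXF factors, Sox17 (chr1:4490931-4497354, minus strand), a factor of arterial identity, had 51.6 CPM in LPS cells, against 167 and 171 CPM in control cells. The controls were almost equal and the LPS value stood apart. Its log2 fold change was -1.71 ± 0.52 (SE, edgeR adjusted p 0.0139). Sox7 (chr14:63943673-63950732, plus strand) had 20.7 CPM in LPS cells, against 58.8 and 63.8 CPM in control cells, from 34 UMIs against 13 and 45 UMIs. Its log2 fold change was -1.58 ± 0.52 (SE, edgeR adjusted p 0.0275).

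Sox18 (chr2:181669836-181671640, minus strand), the third SOXF gene, had 122 CPM in LPS cells, against 149 and 234 CPM in control cells. Its log2 fold change was -0.68 ± 0.50 (SE, edgeR adjusted p 0.475), and the gap between the controls was wider than that between LPS and the first control. This value leaned on 43 LPS cells of sub-cluster 11.0, which held 23.0% of the LPS endothelial-like cells but 52.7% of their UMIs and 163 of the 201 Sox18 UMIs. Without that sub-cluster Sox18 was called lower, with a log2 fold change of -1.98 ± 0.56 (SE, edgeR adjusted p 0.00574). A mean that gave each cell the same weight was 69.0 CPM in LPS cells, against 109.5 and 175 CPM in control cells.

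Erg (chr16:95359169-95586593, minus strand), the ETS factor most often used as an endothelial nuclear marker, had 142 CPM in LPS cells, against 190 and 163 CPM in control cells. The log2 fold change was -0.30 ± 0.50 (SE, edgeR adjusted p 0.805), and the ratio had a 95% interval of 0.413 to 1.60. The share of cells with an Erg UMI at 1000 UMIs per cell was 11.5% in LPS cells, between the 15.6% and 10.1% of the controls.

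Klf2 (chr8:72319033-72321656, plus strand) is induced by laminar flow. It had 610 CPM in LPS cells, against 733 and 657 CPM in control cells. The log2 fold change was -0.19 ± 0.53 (SE, edgeR adjusted p 0.897), and the interval of the ratio, 0.429 to 1.80, spans 1. Of the 1004 LPS UMIs of Klf2, 694 came from sub-cluster 11.0, and without it the log2 fold change was -0.79 ± 0.54 (SE, edgeR adjusted p 0.367). Klf4 (chr4:55527143-55532466, minus strand) had 166 CPM in LPS cells, against 358 and 228 CPM in control cells. Its log2 fold change was -0.79 ± 0.52 (SE, edgeR adjusted p 0.393), with a ratio interval of 0.285 to 1.17.

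These calls rest on 1 LPS library and a single residual degree of freedom, with the spread pooled over genes and the LPS library assumed to vary like the controls, a spread that may be technical. The direction of each member held in all alternatives with a test, but Cytl1 alone was called with DESeq2's size factors, with the DESeq2 test, with a marker gate or with 1-step clusters, and 0 members with library totals or after subtracting free RNA. After that subtraction the log2 fold changes were -3.49 ± 1.16 for Cytl1, -1.92 ± 0.90 for Tek, -1.998 ± 0.78 for Sox17 and -1.82 ± 0.77 for Sox7 (SE). Without control replicate 2 the log2 differences, which then have no test, were -3.03 for Cytl1, -1.71 for Tek, -1.68 for Sox17 and -1.46 for Sox7.

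At equal depth LPS cells showed fewer members each. With every cell thinned to 1000 UMIs, a mean of 1.12 of the 10 members was detected in LPS cells, against 2.47 and 2.26 in control cells, where 9 shallower cells of control replicate 1 were left out. No member was detected in 31.0% of LPS cells, against 3.13% and 2.88% of control cells. Cytl1 enters both measures and had the widest gap of any member, at 22.5% of LPS cells against 81.3% and 89.2% of control cells. The thinned shares of Erg and Tie1 in LPS cells lay between those of the controls. Neither measure was made without Cytl1, so they do not show a fall shared by the members. Unthinned means were 3.92 members in LPS cells, against 4.22 and 4.31 in control cells, and median depths were 4998 UMIs per cell against 3790 and 2376. In lymphoid-like cells, which should lack most members, the thinned mean was 0.136 in the LPS library, against 0.0665 and 0.522 in the controls.

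**Figure D3:**
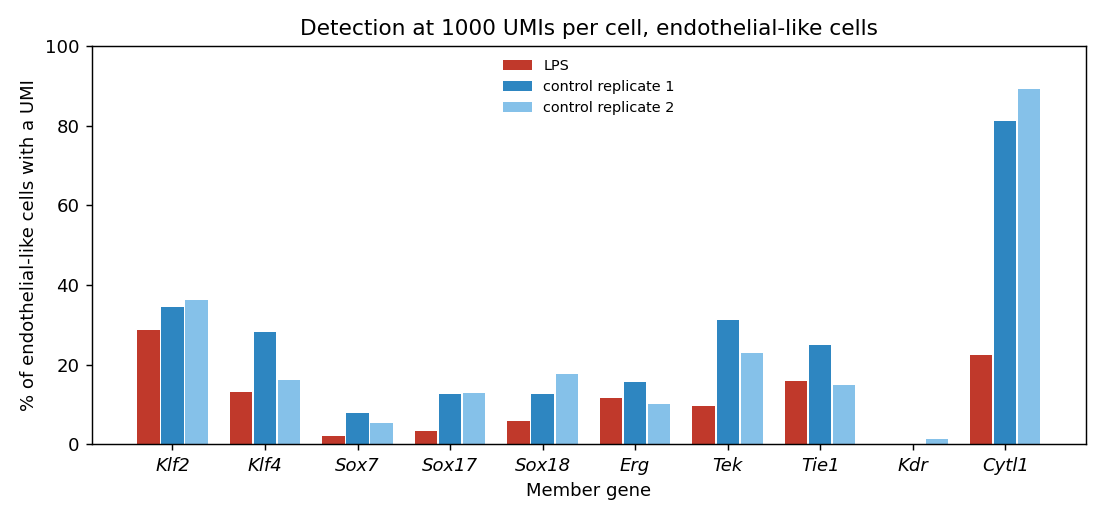
Share of endothelial-like cells with at least 1 UMI of each member after thinning to 1000 UMIs per cell; each bar is 1 library. The Cytl1 bars stand at 22.5% in the LPS library and at 81.3% and 89.2% in the controls, and Kdr bars are at or near 0.

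The members varied among endothelial-like cells of the same library. The values here are CPM of all UMIs of a sub-cluster with exact Poisson 95% intervals that cover counting error only. In control replicate 2, sub-cluster 17.0, led by Cldn5 and Klk10, had a Klf2 level of 1361 (1196 to 1543) CPM and sub-cluster 17.1, led by Apoe, Bmp6 and Gkn3, one of 230 (166 to 310) CPM. Sub-cluster 17.2, with 10 cells and the same leading genes as 17.1, had Klf2 at 810 (644 to 1006) CPM and Tek at 593 (452 to 763) CPM, so these genes did not follow the leading genes. Between 17.0 and 17.1 Klf4 ran the same way as Klf2, at 530 (429 to 648) and 87.5 (49.99 to 142) CPM, and so did Tek, at 619 (510 to 746) and 213 (152 to 291) CPM. The lineage factors did not separate these cells: Sox17 was at 190 and 202 CPM, Sox18 at 313 and 295 CPM, and Erg at 229 and 202 CPM, with intervals that overlap. Sub-clusters 17.0 and 17.1 each held 19 cells of similar depth, with medians of 9259 and 8296 UMIs.

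A control sub-cluster led by Cdh11, Nts and Hapln1 (4.5) departed from the others in Cytl1. Its Cytl1 level was 565 and 896 CPM in control replicates 1 and 2, while the other control sub-clusters lay between 2881 and 6698 CPM. Sox18 was low there too, at 20.9 and 56.9 CPM, whereas Klf2 was at 1026 and 697 CPM. With these 12 and 20 cells left out, 4 members were called lower.

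LPS sub-clusters differed in Klf2, Sox18 and Tek. Klf2 was at 736 (683 to 793) CPM in sub-cluster 11.0, led by Ccl2, Tmem252 and Lcn2, and at 188 to 305 CPM in 11.1 to 11.3, which have Selp and Cp among their leading genes. Sox18 was at 173 (147 to 202) CPM in 11.0 and at 7.24 to 53.0 CPM in 11.1 to 11.3. In 11.4, also led by Csf3 and Selp, Klf2 was at 600 (503 to 711) CPM and Sox18 at 89.5 CPM, and in 11.5 they were at 450 (294 to 659) and 51.9 CPM. Tek was at 255 (193 to 331) CPM in 11.4, at 65.3 to 111 CPM in 11.0 to 11.3 and had 1 UMI in 11.5. The Tek level of 11.4 was above that of control sub-cluster 4.2, at 164 and 161 CPM in control replicates 1 and 2. It was also above the 213 CPM of 17.1 in control replicate 2, with intervals that overlap in each case. The cells of 11.0 were the deepest, with a median of 19590 UMIs. Medians were 9563 UMIs in 11.4, 3405 to 4542 UMIs in 11.1 to 11.3 and 2844 UMIs in 11.5. The Klf2 value of 11.5 rests on 26 UMIs in 18 cells. Its interval overlaps those of 11.2 (208 to 360 CPM) and 11.3 (237 to 386 CPM). The median share of Gm42418 was 8.64% of UMIs in 11.0, 14.3% in 11.4, 18.1% to 25.8% in 11.1 to 11.3 and 24.3% in 11.5. The part of depth or of Gm42418 in these levels was not tested. Cytl1 was at 150 to 633 CPM in every LPS sub-cluster, below all control sub-clusters other than 4.5.

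**Figure D4:**
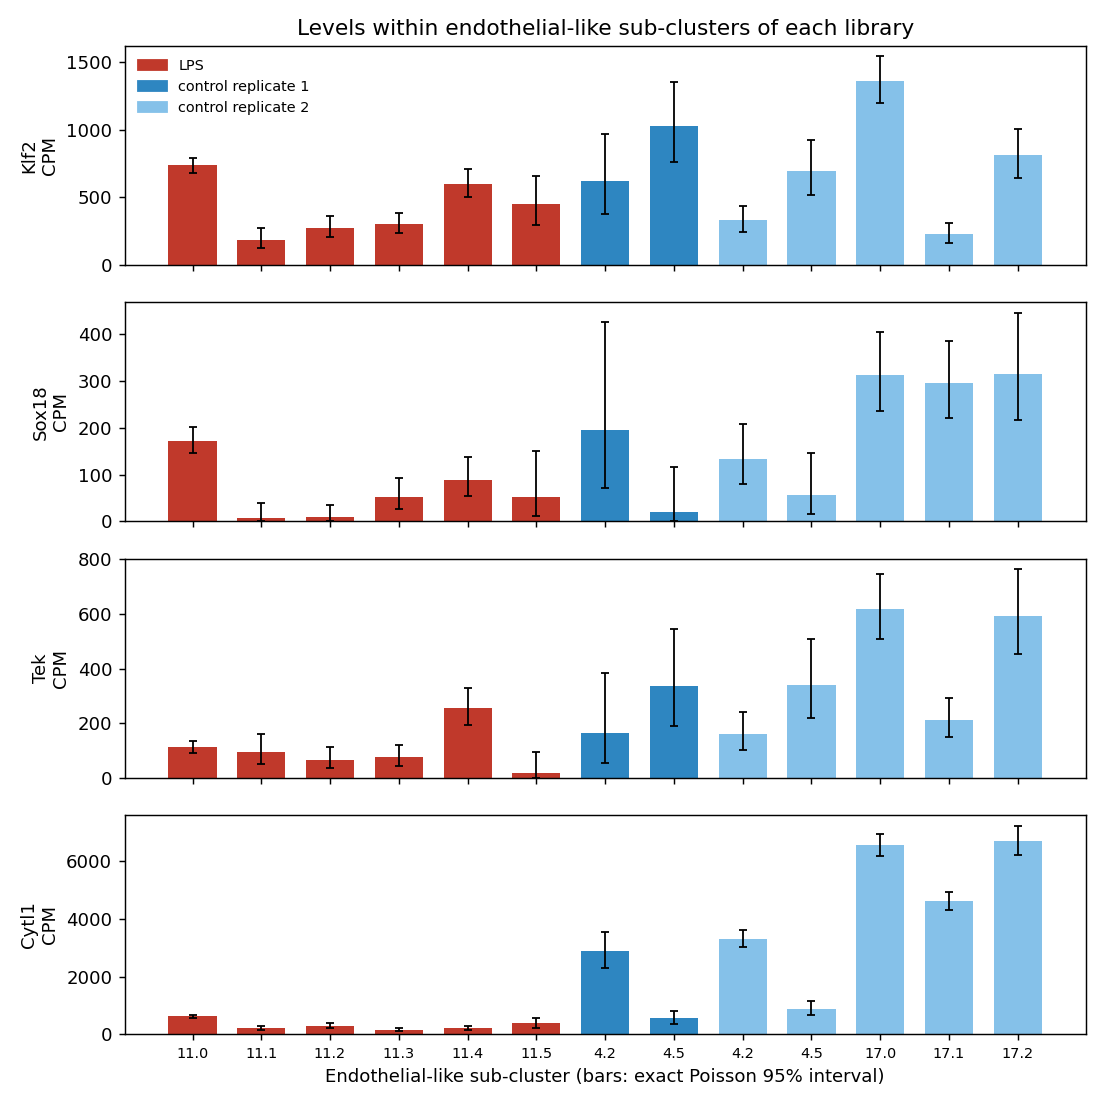
Levels of Klf2, Sox18, Tek and Cytl1 in CPM in endothelial-like sub-clusters with at least 10 cells, by library; error bars are exact Poisson 95% intervals. Klf2 runs from 230 to 1361 CPM within control replicate 2, while Cytl1 is at 2881 to 6698 CPM in all control sub-clusters but 4.5.

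Across classes the receptors, SOXF factors and Erg peaked in endothelial-like cells, but Klf2, Klf4 and Kdr did not follow that order in every library. The levels are CPM of all UMIs of a class, for classes with at least 20 cells in a library. Klf2 was at 784 (697 to 879) CPM in 35 neutrophil-like LPS cells, above the 562 (528 to 598) CPM of LPS endothelial-like cells. Below these came mesothelial-like cells at 357 CPM, fibroblast-like cells at 243 CPM, phagocyte-like cells at 159 CPM and lymphoid-like cells at 86.3 CPM, all of the LPS library. In the controls endothelial-like cells came first, at 721 and 686 CPM, before fibroblast-like cells at 158 and 325 CPM and phagocyte-like cells at 224 and 319 CPM, whose order differed between the replicates. B-like cells, with fewer than 20 cells a library, had Klf2 at 641 CPM in LPS and at 942 and 1143 CPM in control libraries.

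Klf4 was at 384 (324 to 453) CPM in mesothelial-like LPS cells, above the 153 (136 to 173) CPM of endothelial-like LPS cells. In fibroblast-like cells Klf4 was at 174 CPM in the LPS library, against 388 and 354 CPM in the controls. In the controls it was at 352 and 238 CPM in endothelial-like cells, where intervals overlap those of fibroblast-like cells in control replicate 1. Klf4 had a single UMI in neutrophil-like cells, so the Klf genes parted there.

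Kdr was highest in mesothelial-like cells, the lining of the outer surface. It was at 79.1 (53.0 to 114) CPM in the LPS library, from 29 UMIs in 64 cells, of which 11 had a UMI. In 18 and 19 mesothelial-like control cells there were 6 and 1 Kdr UMIs. Endothelial-like cells of the LPS library were at 3.36 (1.23 to 7.31) CPM, an interval that does not reach the mesothelial one.

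**Figure D5:**
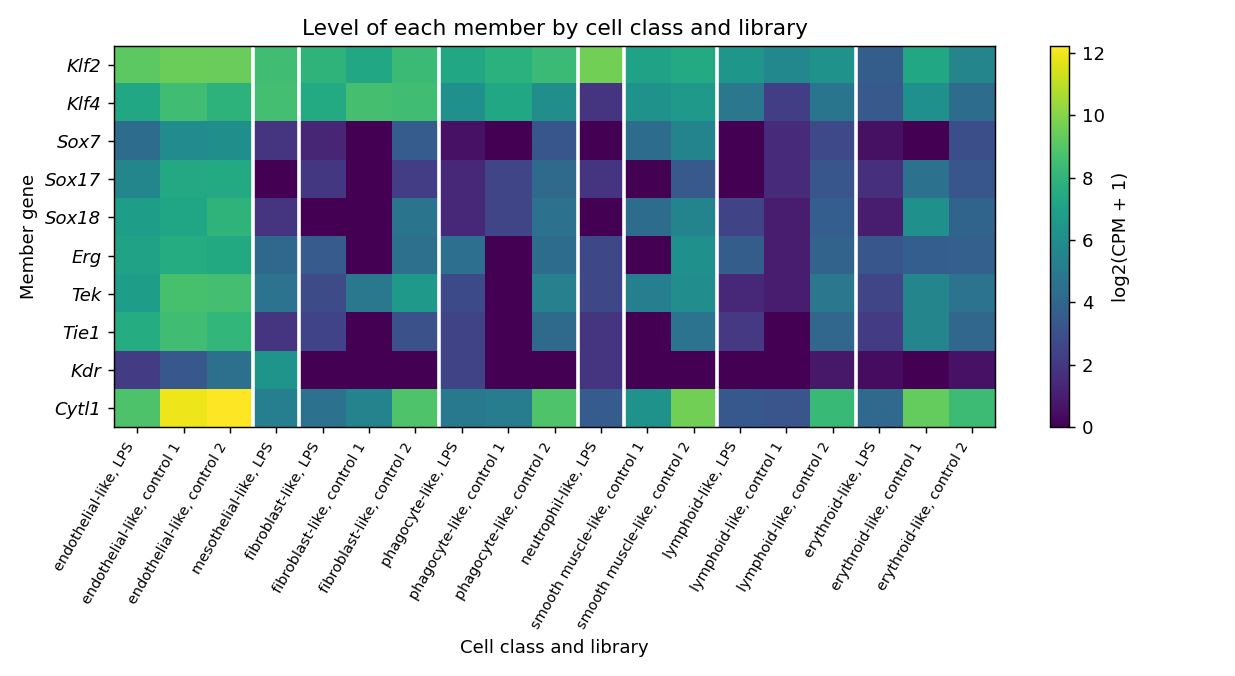
Level of each member, as log2(CPM + 1), in the cell classes and libraries shown, each with at least 20 cells. Sox7, Sox17, Sox18, Erg, Tie1 and Tek are brightest in the endothelial-like columns of each library, while Klf2 and Klf4 are spread over classes and Kdr is brightest in the mesothelial-like column.

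In other classes few members moved, and those that did rested on control replicate 2. In phagocyte-like cells Cytl1 was the 1 member called lower, where 1.71% of 8847 genes were called lower and 3.29% higher. It had 59 UMIs in LPS cells, against 7 and 371 UMIs in control cells, or 32.2 CPM against 39.0 and 406 CPM, so the LPS level lay close to the first control. The log2 fold change was -2.86 ± 0.69 (SE, edgeR adjusted p 0.00147), and the difference was -0.27 without control replicate 2. Free RNA was expected to give 91.6% of the LPS UMIs of Cytl1 in these cells, against 37.5% and 52.2% in control cells. That is 54.0 of 59 LPS UMIs, against 2.62 of 7 and 194 of 371 control UMIs. Few UMIs thus remain in the LPS library and control replicate 1, and the fit below rests on control replicate 2. With free RNA subtracted Cytl1 was called lower as well, at -5.96 ± 1.29 (SE, edgeR adjusted p 0.000491).

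In fibroblast-like cells Cytl1 and Tek were called lower, where 4.87% of 5400 genes were called lower and 8.06% higher. Cytl1 had 15 UMIs in LPS cells, against 3 and 130 UMIs in control cells, with a log2 fold change of -3.33 ± 0.55 (SE, edgeR adjusted p 1.28e-07). Tek had 4 UMIs in LPS cells, against 2 and 27 UMIs in control cells, with a log2 fold change of -3.22 ± 0.92 (SE, edgeR adjusted p 0.00580). Without control replicate 2 the differences were -0.61 for Cytl1 and -1.62 for Tek, and neither was called after free RNA was subtracted. Tek was then at -4.76 ± 1.81 (SE, edgeR adjusted p 0.326), a larger difference with a larger error. Free RNA was expected to give 100% of the LPS UMIs of Cytl1, so no fold is given for it.

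In lymphoid-like cells 0 members were called, where 1.06% of 9711 genes were called and 0 of the members reached an unadjusted p under 0.05. Klf2, which controls lymphocyte exit from lymphoid organs, was at 92.2 CPM in LPS cells, against 56.6 and 67.3 CPM in control cells, with a log2 fold change of 0.56 ± 0.33 (SE, edgeR adjusted p 0.495). Over the whole class Cytl1 had 6 UMIs in LPS cells, against 9 and 2911 UMIs in control cells. That is 10.1 CPM against 9.26 and 265 CPM, so the LPS level lay close to the first control. Free RNA was expected to give 100% of these UMIs in the LPS library and control replicate 1, and 80.4% in control replicate 2. The class mixes cells with and without Rag1, a gene of developing lymphocytes. Within sub-clusters in which under 10% of cells had Rag1, Klf2 had the opposite sign, at -1.10 ± 0.45 (SE, edgeR adjusted p 0.166), and Cytl1 was called lower, at -4.54 ± 0.72 (SE, edgeR adjusted p 4.35e-08).

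The difference in response between endothelial-like cells and each of these classes was tested directly as an interaction with edgeR, and 0 members were called. An unadjusted p under 0.05 was reached by Sox18 and Kdr against phagocyte-like, Sox18 against fibroblast-like and Klf4 against lymphoid-like cells, and Sox18 and Kdr had few UMIs in those classes. Of all genes 0.402% were called against phagocyte-like, 0.773% against fibroblast-like and 0.451% against lymphoid-like cells. These tests carry little information for most members, which had few UMIs outside endothelial-like cells. In fibroblast-like cells Sox7 had 1 UMI in LPS cells, against 0 and 3 UMIs in controls, Sox17 had 2 against 0 and 1, and Kdr had 0 in all libraries. In phagocyte-like cells Sox7 had 1 UMI in LPS cells, against 0 and 7, and Sox17 had 3 against 1 and 14. Whether the falls of Sox7 and Sox17 differ between classes could not be told at this depth. For Cytl1 the difference (endothelial-like minus other) was -0.93 ± 1.19 against phagocyte-like and -0.04 ± 0.68 against fibroblast-like cells (SE, edgeR adjusted p 1 for both).

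Cytl1 was spread through every class of control replicate 2. It was found in 80.1% of lymphoid-like cells there, at 301 CPM, and in 79.2% of erythroid-like cells, at 331 CPM. The same shares were 4.67% of lymphoid-like cells in the LPS library and 5.63% in control replicate 1. In erythroid-like cells they were 12.55% in the LPS library, at 17.1 CPM, and 45.7% in control replicate 1, at 640.5 CPM. The erythroid-like value of control replicate 1 rests on 56 UMIs in 35 cells. The ratio of some members to Cytl1 was close in unlike classes of control replicate 2: per 100 Cytl1 UMIs there were 7.95 Tek UMIs in endothelial-like, 9.21 in lymphoid-like and 7.30 in erythroid-like cells. Tie1 ran at 5.76, 5.19 and 4.71 per 100 in the same classes. Klf2 did not keep 1 ratio, at 14.4, 25.4 and 13.8 per 100 there and 69.0 in phagocyte-like cells, and Klf4 was at 4.98, 8.69 and 5.78 per 100. Fibroblast-like cells of that library held 20.8 Tek and 1.54 Tie1 UMIs per 100 Cytl1 UMIs. The share of UMIs expected from free RNA in control replicate 2 was 80.4% for Cytl1 and 59.2% for Tek in lymphoid-like cells, 52.2% and 42.4% in phagocyte-like cells, and 51.4% and 16.8% in fibroblast-like cells. The source of the rest was not tested, and no expression is read from these shares.

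Other genes of the same pathways moved in both directions in endothelial-like cells. Counts called in each list are to be read against the 5.93% higher and 5.69% lower over all genes tested, and a list near those shares, such as one with a single call among about 20 genes, does not stand apart. Of 26 measured genes reported to answer to Klf2, Klf4 or laminar flow, 8 were called higher, 5 lower and 13 were not called, with a median log2 fold change of 0.36. Selp, the P-selectin that catches leukocytes, had 3503 CPM in LPS cells, against 317 and 207 CPM in control cells (log2 fold change 3.76 ± 0.53, SE). Adamts1, a matrix protease, rose by 2.34 ± 0.50 (SE) on the log2 scale. Hmox1, which breaks down haem, had 31.0 CPM in LPS cells, against 0 and 5.67 CPM in control cells. The 5 called lower, named after their values were seen, were Thbd, which encodes the anticoagulant thrombomodulin, Cav1, Thbs1, Ptgs1 and Timp3. Thbd had 76.6 CPM in LPS cells, against 339 and 193 CPM in control cells. The most abundant genes of the list that were not called were Aqp1, a water channel, at 0.28 ± 0.52, and Bmp4, a growth factor, at -0.97 ± 0.55 (SE).

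Of 19 measured genes of flow sensing and of the route from MEK5 to MEF2, 1 was called, with a median of 0.02. It was Mef2c, a MEF2 factor, with 30.4 CPM in LPS cells, against 167 and 101 CPM in control cells (log2 fold change -2.08 ± 0.51, SE, edgeR adjusted p 0.00115). Pecam1, part of the junctional flow sensor, and Heg1, a partner of the CCM proteins, were not called, at -0.46 ± 0.54 and 0.02 ± 0.53. Klf2 and Erg, the matched members with a MEF2 motif in a promoter window, were not called.

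Of 9 measured VEGF ligands, co-receptors and other receptors, 1 was called higher, 2 lower and 6 were not called, with a median of -0.58. Nrp1, the co-receptor of Kdr, had 119 CPM in LPS cells, against 724 and 696 CPM in control cells (-2.57 ± 0.59, SE). The ligand gene Vegfc was at -2.72 ± 0.59, and Sdc4, a heparan sulfate proteoglycan, at 2.70 ± 0.50. Flt1, a further VEGF receptor, was at 98.4 CPM in LPS cells, against 217 and 119 CPM in control cells, and was not called.

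Of 4 measured angiopoietins and Tie regulators, Ptprb, the phosphatase that acts on Tek, was called lower, with 459 CPM in LPS cells, against 2186 and 1447 CPM in control cells (-1.98 ± 0.59, SE). The other 3 were not called, and the median was -0.06. Tek and Ptprb were both lower, and the uncalled Tnip2 and Adam17, a protease that sheds Tie1 from the surface, were at 1.44 ± 0.64 and 0.82 ± 0.47.

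Of 24 other endothelial transcription factors measured, 1 was called higher, 3 lower and 20 were not called, with a median of -0.16, beside 5.93% higher and 5.69% lower over all genes. Ets1, an ETS factor like Erg, had 239 CPM in LPS cells, against 90.5 and 49.6 CPM in control cells (1.86 ± 0.49, SE). The Notch target Hey2 was at -2.08 ± 0.53 and Lmo2 at -1.66 ± 0.56. Elk3, an ETS repressor named after its value was seen, was at -1.61 ± 0.50. So the ETS genes Ets1, Erg and Elk3 were called higher, not called and called lower.

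Neither the 8 other Klf genes nor the 3 other Sox genes measured held a call, with medians of -0.26 and -0.98. Klf9 was at 388 CPM in LPS cells, against 380 and 286 CPM in control cells. Sox4 was at 126 CPM in LPS cells, against 58.8 and 80.8 CPM in control cells. Of 21 measured endothelial surface genes, 1 was called higher, 3 lower and 17 were not called, with a median of -0.46. Cldn5, a tight junction protein, had 146 CPM in LPS cells, against 367 and 561 CPM in control cells, Clec14a was at -1.88 ± 0.55 and Cyyr1 at 3.38 ± 0.52. Icam2 was the third called lower, named after its value was seen. Many genes of this list, such as Pecam1, Cldn5, Clec14a and Icam2, were also markers that named the class. Their counts are therefore not independent of how the cells were chosen.

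Genes with the most similar pattern over 12 sums, the 4 tested classes in 3 libraries, were found by Pearson's r of log2(CPM + 1), as a description in which sums share libraries and depth. For Erg they were Cdh5 (r of 0.987), Mal and Mall, for Tie1 Epha4 (0.990), Gja4 and Pecam1, and for Sox17 Cldn5 (0.974), Sncaip and Palmd. For Tek they were Tspan7 (0.980), Cav1 and Tmem158, for Cytl1 Ncam1 (0.968), Ushbp1 and Ptprb, for Sox7 Ecrg4 (0.987), Wnk4 and Smoc1, and for Sox18 Enpp6 (0.972), Pkn3 and Rasgrf2. For Klf2 they were Ctnna1 (0.963), Phactr2 and Tmbim1, and for Klf4 Pros1 (0.967), Arpin and Ube2z.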

How the data were processed

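Single-cell libraries were made with 10x Genomics 3′ v3 chemistry, per the labels. The deposited values are whole-number UMI counts per gene and barcode, which the authors obtained with Cell Ranger 3.1 on mm10, per the submitters' processing notes. Barcodes were dropped when they had under 500 UMIs, under 300 genes or over 15% of UMIs from mitochondrial genes. The remaining barcodes were clustered in 2 steps (scanpy 1.11.5, Leiden, resolution 1.0 in both, 2000 variable genes, 30 and 20 components) with the members left out, and named from markers. A second-step resolution of 0.5 was tried first; 1.0 was chosen after seeing the clusters. Scrublet marked 6 of 4943 scored barcodes, too few to have worked, and doublets were not removed.

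UMIs were summed per library and class and tested across libraries with edgeR 4.0.16 (quasi-likelihood, TMM, filterByExpr, Benjamini-Hochberg over all genes tested, threshold 0.05); DESeq2 1.42.0 was an alternative. The fit was also run on simulated counts, whose outcome is not reported here and lends no weight to the calls. Thinned shares are medians of 20 draws. Free RNA was estimated from each gene's pooled level in the lower-ranked clusters of its library, those where that gene was lowest. Intervals on levels by class cover counting error only. In each list the called genes with the 3 largest changes whose LPS value lay outside both controls, and up to 2 of the most abundant uncalled genes, are named. Members and lists were chosen with earlier results of these data known. Nothing in the labels pairs the libraries, and control replicates are numbered in the order of deposition.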

Additional observations from a re-analysis of the deposited data

Results flagged for a closer look

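Members were present in 3336 near-empty barcodes of the LPS library, which entered no comparison, above the 0.438 CPM that a count of 0 allows there (3 counts). The levels were 95.6 CPM for Cytl1, 22.9 CPM for Tek, 18.0 CPM for Tie1 and 5.12 CPM for Kdr. The SOXF factors were at 3.65 CPM for Sox7, 5.41 CPM for Sox17 and 9.79 CPM for Sox18. Erg was at 61.5 CPM, Klf2 at 69.1 CPM and Klf4 at 50.1 CPM. Per 100 Tie1 UMIs there were 342 Erg UMIs in these barcodes, against 70.5 in LPS endothelial-like cells. This was not particular to near-empty barcodes. The ratio was 456 in phagocyte-like, 350 in lymphoid-like, 254.5 in erythroid-like and 233 in fibroblast-like cells of the LPS library. Those classes held few Tie1 UMIs, at 9, 2, 22 and 3. Of the Erg UMIs in kept LPS barcodes, 53.8% lay in near-empty barcodes and 29.9% in endothelial-like cells. The controls had 4 and 1 such barcodes, so no comparison was possible.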

How the results depend on the processing

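In endothelial-like cells 524 genes were called higher and 503 lower, with 4 members lower, and these counts moved with the processing. They were 206 and 120 with DESeq2's size factors, 133 and 119 with the DESeq2 test, 313 and 239 with a marker gate and 206 and 138 with 1-step clusters, each with 1 member lower (Cytl1). With at most 10% mitochondrial UMIs they were 319 and 239, with 2 members, and 2 members were called with no filter on low counts. With library totals and with free RNA subtracted, 0 and 0 genes and 0 members were called by edgeR, and 4 members and 1 member had an unadjusted p under 0.05. The prior degrees of freedom, infinite in the reported fit, were 2.72 and 3.29 there. The log2 fold change ran from -4.09 to -2.97 for Cytl1, -2.22 to -1.62 for Sox17, -1.82 to -1.19 for Sox7 and -1.92 to -1.43 for Tek, and the highest adjusted p was 0.658, 0.670, 0.751 and 0.683 for these genes. Without the LPS sub-cluster of the deepest cells, a setting chosen after seeing the data, 5 members were called. In phagocyte-like cells 0 members were called with DESeq2's size factors and 1 (Cytl1) with free RNA subtracted. In fibroblast-like cells 1 was called with the marker gate and 0 with free RNA subtracted. In lymphoid-like sub-clusters low in Rag1 1 was called (Cytl1), and Klf2 turned to -1.10. The cause was not tested. No paired analysis was possible because there is 1 LPS library and the control numbers follow deposition order.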
